A study of Mus musculus with 9 samples.

Results

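The windows described here lie at the starts of long noncoding RNA (lncRNA) genes. They come from a deposited table of 17641 chromatin windows. A window was included when its assigned gene had 1 of 7 noncoding biotypes (lincRNA, antisense, processed_transcript, bidirectional_promoter_lncRNA, sense_intronic, sense_overlapping or 3prime_overlapping_ncRNA) and its centre lay within 1000 bp of that gene's start. This gave 986 windows, 5.59% of the table, at 959 genes. By biotype, 408 are antisense, 347 lincRNA, 165 processed_transcript, 52 bidirectional_promoter_lncRNA, 11 sense_intronic, 2 sense_overlapping and 1 3prime_overlapping_ncRNA. Nearly all (984) are 401 bp wide. The rule used annotation and distance, not signal, but the windows it drew on were not free of signal. Of the 986, 0 lacked a called peak in every library.

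Chromatin was immunoprecipitated with an antibody labelled H3K9me3 (trimethylated lysine 9 of histone H3) and sequenced in untreated betaTC3 cells (2 libraries), in alphaTC1 cells 5 days after transduction with Smndc1 shRNAs (2 libraries), and in alphaTC1 cells 5 days after transduction with an empty vector (2 libraries). BetaTC3 is a mouse pancreatic beta cell line and alphaTC1 a mouse pancreatic alpha cell line, both long-cultured tumour lines. Smndc1 encodes a splicing factor. Each group also has 1 input library, which entered through the authors' peak calls. BetaTC3 cells carried no vector, so cell line and transduction cannot be told apart in that comparison, and the labels do not say whether the 2 libraries of a group are separate cultures.

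An lncRNA is a transcript with little or no protein-coding capacity, and its gene has a promoter of its own or shares one with a neighbour that runs the other way. Many act on nearby genes, some coat whole chromosomes or imprinted domains, and others serve mainly as hosts of microRNAs or small nucleolar RNAs. H3K9me3 is the modification of heterochromatin, written by SUV39H and SETDB1 enzymes and read by HP1 proteins, and is best known from satellites, transposons and silenced genes. The libraries labelled H3K9me3 do not look that way in this table: 65.9% of all windows are centred within 1 kb of an annotated gene start. The values below are therefore given as signal of these libraries, without naming an active or a silent state.

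The following 8 promoters belong to genes on which the results turn, and each is 300 bases long (250 before the start and 50 after it). They are RefSeq sequences of build GRCm38.p6, the build of the files (mm10), printed 5′ to 3′ on the strand of the gene. Each CG dinucleotide is in capitals, since the level of these windows went with CG content. Tmem51os1 (chr4:142084048-142084347, plus strand) and Mir670hg (chr2:94265039-94265338, minus strand) had more signal in betaTC3. Mir9-3hg (chr7:79499776-79500075, plus strand), Snhg16 (chr11:116671410-116671709, plus strand) and Gm36252 (chr17:68187814-68188113, minus strand) had less signal in betaTC3. Snhg1 (chr19:8723237-8723536, plus strand) was not called in either comparison in the deposited scaling. 2900060N12Rik (chr12:24831268-24831567, minus strand) and Rptoros (chr11:119834316-119834615, minus strand) were among the windows with the smallest p-values after knockdown.
Tmem51os1: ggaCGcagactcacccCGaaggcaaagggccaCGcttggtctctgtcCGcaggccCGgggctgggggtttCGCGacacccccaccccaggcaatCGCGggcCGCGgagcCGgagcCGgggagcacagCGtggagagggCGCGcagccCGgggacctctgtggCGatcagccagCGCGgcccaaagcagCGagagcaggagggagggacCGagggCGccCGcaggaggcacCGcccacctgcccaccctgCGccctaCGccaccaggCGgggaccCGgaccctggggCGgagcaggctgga
Mir670hg: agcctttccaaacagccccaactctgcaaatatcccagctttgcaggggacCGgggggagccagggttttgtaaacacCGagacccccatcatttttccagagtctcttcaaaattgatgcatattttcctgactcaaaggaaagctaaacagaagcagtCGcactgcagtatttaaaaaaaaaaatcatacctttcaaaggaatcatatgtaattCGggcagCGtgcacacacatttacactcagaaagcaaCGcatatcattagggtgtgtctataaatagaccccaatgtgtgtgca
Mir9-3hg: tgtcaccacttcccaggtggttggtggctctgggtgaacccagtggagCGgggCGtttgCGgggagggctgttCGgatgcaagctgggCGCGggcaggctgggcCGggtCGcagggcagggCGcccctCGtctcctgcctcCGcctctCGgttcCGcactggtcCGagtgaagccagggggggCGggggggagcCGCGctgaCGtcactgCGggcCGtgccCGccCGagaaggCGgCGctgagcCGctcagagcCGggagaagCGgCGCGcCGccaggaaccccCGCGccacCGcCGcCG
Snhg16: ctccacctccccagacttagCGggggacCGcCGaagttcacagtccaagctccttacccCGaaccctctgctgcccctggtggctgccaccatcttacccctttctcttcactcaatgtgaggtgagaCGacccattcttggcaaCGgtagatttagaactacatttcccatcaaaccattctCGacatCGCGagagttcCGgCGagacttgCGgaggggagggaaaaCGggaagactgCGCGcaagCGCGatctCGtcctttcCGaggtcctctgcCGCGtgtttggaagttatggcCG
Gm36252: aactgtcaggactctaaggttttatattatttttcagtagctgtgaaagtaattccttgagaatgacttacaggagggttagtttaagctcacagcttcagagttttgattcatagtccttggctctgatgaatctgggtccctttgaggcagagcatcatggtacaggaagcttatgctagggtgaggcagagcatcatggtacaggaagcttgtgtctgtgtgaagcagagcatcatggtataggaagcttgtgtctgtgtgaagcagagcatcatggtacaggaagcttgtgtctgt
Snhg1: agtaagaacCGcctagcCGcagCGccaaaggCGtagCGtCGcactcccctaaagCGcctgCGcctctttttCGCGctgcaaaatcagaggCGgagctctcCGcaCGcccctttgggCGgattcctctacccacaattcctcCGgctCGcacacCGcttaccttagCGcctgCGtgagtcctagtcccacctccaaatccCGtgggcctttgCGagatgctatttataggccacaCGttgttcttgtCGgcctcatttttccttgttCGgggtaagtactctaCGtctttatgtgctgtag
2900060N12Rik: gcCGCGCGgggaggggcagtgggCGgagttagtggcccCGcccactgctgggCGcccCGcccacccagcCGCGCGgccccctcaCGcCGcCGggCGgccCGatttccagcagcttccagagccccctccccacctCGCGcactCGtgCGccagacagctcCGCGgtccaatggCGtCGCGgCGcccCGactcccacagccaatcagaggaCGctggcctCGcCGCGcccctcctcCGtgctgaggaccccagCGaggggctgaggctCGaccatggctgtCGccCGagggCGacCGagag
Rptoros: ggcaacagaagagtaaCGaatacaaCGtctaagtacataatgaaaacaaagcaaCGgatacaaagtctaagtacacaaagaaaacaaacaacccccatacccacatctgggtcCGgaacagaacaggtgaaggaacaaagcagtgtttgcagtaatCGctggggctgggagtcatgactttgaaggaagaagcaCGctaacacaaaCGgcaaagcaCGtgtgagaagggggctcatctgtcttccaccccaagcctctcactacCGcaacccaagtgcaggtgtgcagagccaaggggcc
The 8 differ widely in CG content. The Gm36252 promoter holds no CG, Mir670hg 6, Rptoros 9, Snhg16 22, Snhg1 25, Tmem51os1 30, Mir9-3hg 35 and 2900060N12Rik 37. The measured window covers all 300 bases in 2900060N12Rik, 237 in Tmem51os1, 85 in Mir670hg, 80 in Gm36252, 47 in Mir9-3hg and Rptoros, and 1 in Snhg1. The Snhg16 window begins 54 bp past the end of its printed promoter, inside the gene. Over both strands, CCAAT occurs 2 times in 2900060N12Rik and 1 time in Mir670hg, and TATAAA 1 time each in Mir670hg, Gm36252 and Snhg1. A match is only a run of letters, not a known binding site.

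The deposited values are whole reads multiplied by 1 factor per library and are called scaled reads here. In windows, the betaTC3 libraries held 9924487 and 7198683 reads, the knockdown libraries 4530066 and 4800860, and the empty-vector libraries 5983486 and 9224783. The lncRNA windows took 240526 to 537748 of them per library. Gene-start windows of the listed beta and alpha cell markers had more signal in the line of that cell type. A mark of silenced genes would be looked for on the opposite sides. No active or silent state is named for this signal here, so these values are not a check of the line or antibody labels. Beta cell markers Ins1, Pdx1, Iapp, Glp1r and Nkx6-1 (5 of 7 listed have a window) summed to 4394 to 4497 scaled reads in betaTC3 libraries, 699.9 to 951.7 in knockdown libraries and 1083 to 1131 in empty-vector libraries. Nkx6-1 made up nearly all of the alphaTC1 sums, while none of the other 4 exceeded 7.94 in alphaTC1. The alpha cell marker Irx1 had 0.799 and 0 scaled reads in betaTC3, 970 and 1270 in knockdown and 1152 and 1190 in empty-vector libraries, and Pou3f4 had 1.60 and 1.90, 284 and 366, and 354 and 341 in the same groups. The 1 duct marker with a window, Sox9, had 3.99 and 4.76 in betaTC3, 465 and 598 in knockdown and 546 and 601 in empty-vector libraries, and the 1 acinar marker, Cela1, had 4.76 to 8.78, 55.9 to 83.6 and 119 to 124 in the same groups. Whether cells of those types contribute was not tested.

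The lncRNA starts carried less signal than protein-coding starts. The median window averaged 241.5 scaled reads over the 6 libraries, against 544 at 10129 protein-coding gene-start windows and 288.9 over all windows. More than 100 scaled reads were found at 65.4% of the lncRNA windows and at 86.3% of the protein-coding ones. Levels differed by biotype. LincRNA starts, which lie apart from coding genes by definition, had a median of 75.4 scaled reads. The median was 364 at processed_transcript starts, 400 at antisense starts and 539 at bidirectional_promoter_lncRNA starts, where a coding gene starts nearby in the other direction.

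The distance to the nearest protein-coding start separated the levels in the same way. At 430 windows (43.6%), a RefSeq protein-coding gene starts within 1 kb of the lncRNA start, and the median there was 505 scaled reads. At 126 windows with a coding start 1 to 10 kb away it was 143, and at 430 windows with none within 10 kb it was 85.4. Within the near class, 229 lncRNAs start inside the coding gene on the opposite strand (median 557), 144 run divergently from it (379) and 57 lie on its strand (526). ChIP reads carry no strand, so signal at these 430 windows cannot be assigned to one of the paired genes. Of the 986 window centres, 592 lie downstream and 394 upstream of the lncRNA start, at a median distance of 259 bp.

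CG content of the promoter went with level. Own RefSeq promoters were matched for 411 windows. Across these windows, mean level and the observed-over-expected CpG ratio had r = 0.400 and rho = 0.412, and windows share libraries and base composition with their neighbours. The 137 windows with the lowest ratio had a median level of 68.7 scaled reads, the next 137 had 307.6 and the top 137 had 475.3. Taken over 394 distinct promoters, the median ratio was 0.643 for lncRNA genes, 0.796 for 7660 protein-coding genes with a gene-start window and 0.384 for all 32851 promoters in the reference table. CCAAT stood on either strand in 38.6% of the lncRNA promoters, against 40.1% of the protein-coding and 37.4% of all promoters. TATAAA stood in 10.7% of the lncRNA promoters, against 6.1% of the protein-coding and 13.6% of all.

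**Figure D1:**
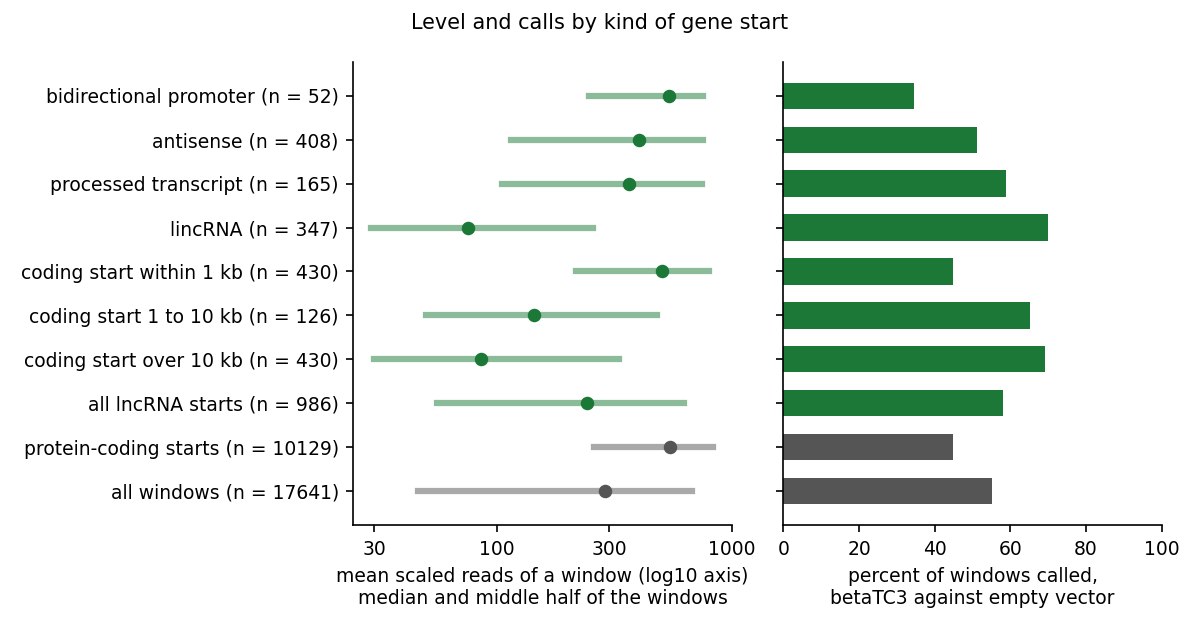
Left, mean scaled reads of a window over 6 libraries (log10 axis; point, median; bar, lower to upper quartile) by biotype and by distance of the lncRNA start to the nearest RefSeq protein-coding start. Right, percent of the same windows called between betaTC3 and empty-vector alphaTC1. LincRNA starts and starts with no coding start within 10 kb have the lowest medians, 75.4 and 85.4, and the highest shares called, 70.0% and 69.1%.

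Most lncRNA windows lay under a called peak in each library, 82.86 to 85.50% of them, beside 81.07 to 84.63% of all windows. A peak was present in both libraries at 82.05% of the 986 windows in betaTC3, 82.86% after knockdown and 82.25% with empty vector. All 6 libraries had a peak at 670 windows (67.95%, exact 95% interval 64.94 to 70.86), against 85.89% of the protein-coding windows (85.20 to 86.56). Both betaTC3 libraries and no alphaTC1 library had a peak at 118 windows (11.97%, 10.01 to 14.16), against 6.79% of the protein-coding windows. All 4 alphaTC1 libraries and no betaTC3 library had one at 104 windows (10.55%, 8.70 to 12.63), against 3.83% of the protein-coding windows. The order of both comparisons turned when only peaks at or above the median −log10 q of a list were counted. The betaTC3 pattern was then found at 3.04% of the lncRNA windows (2.06 to 4.32), against 3.38% of the protein-coding windows (3.03 to 3.75). The alphaTC1 pattern was found at 3.55% (2.48 to 4.90), against 4.65% (4.25 to 5.08). No library had such a peak at 44.52% of the lncRNA windows (41.39 to 47.69), against 18.64% of the protein-coding windows (17.89 to 19.41). The sets therefore differ in how many windows could show either pattern, and the turned order does not compare like shares. These intervals treat windows as independent and cover counting error only. Peaks over lncRNA windows had a median width of 1430 and 1445 bp in betaTC3, 1596 and 1566 bp after knockdown, and 1468 and 1603 bp with empty vector.

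The peak calls and the window values mostly match, with exceptions that bear on zeros. Where a library had no peak, its lncRNA windows reached at most 37.1 scaled reads. A value of 0 occurred 312 times over the 6 libraries, and 12 of these zeros lay inside a called peak, at 5 genes: 1500004A13Rik and Gm43305 (4 libraries each), Gm21989 (2), BC023719 and Gm5784 (1 each). At these 5 windows the value and the peak call disagree, and how a 0 arose there was not tested. A lower value in bulk chromatin may mean fewer marked cells or fewer marked nucleosomes per cell, which cannot be told apart.

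Replicates resembled each other and the lines did not. On log2(scaled reads + 1), Pearson's r across the 986 windows was 0.981 within betaTC3, 0.987 within the knockdown and 0.990 within the empty vector. It was 0.979 to 0.983 between knockdown and empty vector, and 0.507 to 0.539 between betaTC3 and any alphaTC1 library. The lncRNA windows held 5.372 ± 0.066% of the scaled reads in betaTC3, 5.300 ± 0.014% after knockdown and 5.288 ± 0.015% with empty vector (SD, n = 2 each). A two-sided exact permutation test of these shares gave p = 0.333 for betaTC3 against empty vector and p = 0.667 for knockdown against empty vector, where 0.333 is the smallest value that 2 against 2 libraries allow, so the test could not reach the threshold. Both betaTC3 shares, 5.418 and 5.325%, lay above both empty-vector shares, 5.277 and 5.299%.

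BetaTC3 differed from empty-vector alphaTC1 at most lncRNA starts. With limma and Benjamini-Hochberg adjustment over all 17641 windows, 572 of the 986 windows (58.0%) were called at an adjusted p below 0.05, beside 55.2% of all windows. Of these, 230 were higher in betaTC3 (22.1% of all windows were) and 342 lower (33.2% of all windows). The balance of directions rests on the scaling. With libraries centred on their medians, 670 windows were called, 343 higher and 327 lower (66.2% of all windows were called). EdgeR called 351 higher and 337 lower (67.8% of all windows), and DESeq2 347 higher and 288 lower (61.9% of all windows). The median log2 change was -0.134 at lncRNA windows and -0.132 over all windows, and 0.047 and 0.049 after centring.

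Near-complete differences ran in both directions. An absolute log2 change above 3 was found at 124 higher and 91 lower lncRNA windows, together 215 of 986 beside 19.6% of all windows. The share called fell with level, but level is the mean over all 6 libraries, which include the groups compared. A window with signal in 1 line only therefore falls to a lower level, so the trend is partly built into the split. Split at 55.7, 241.5 and 623.5 scaled reads, which divide the lncRNA windows into 4 groups of nearly equal size, 80.6% of the lowest group were called, then 67.1%, 49.2% and 35.2%. Protein-coding windows in the same ranges of level had 76.9%, 73.7%, 43.0% and 29.7%. The share was larger at lncRNA windows in 3 of the 4 ranges and smaller in 1, and this difference was not tested. By biotype, 70.0% of lincRNA, 58.8% of processed_transcript, 51.2% of antisense and 34.6% of bidirectional_promoter_lncRNA windows were called. Of the windows with a coding start within 1 kb, 44.9% were called, the share found at protein-coding starts themselves (44.9%).

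**Figure D2:**
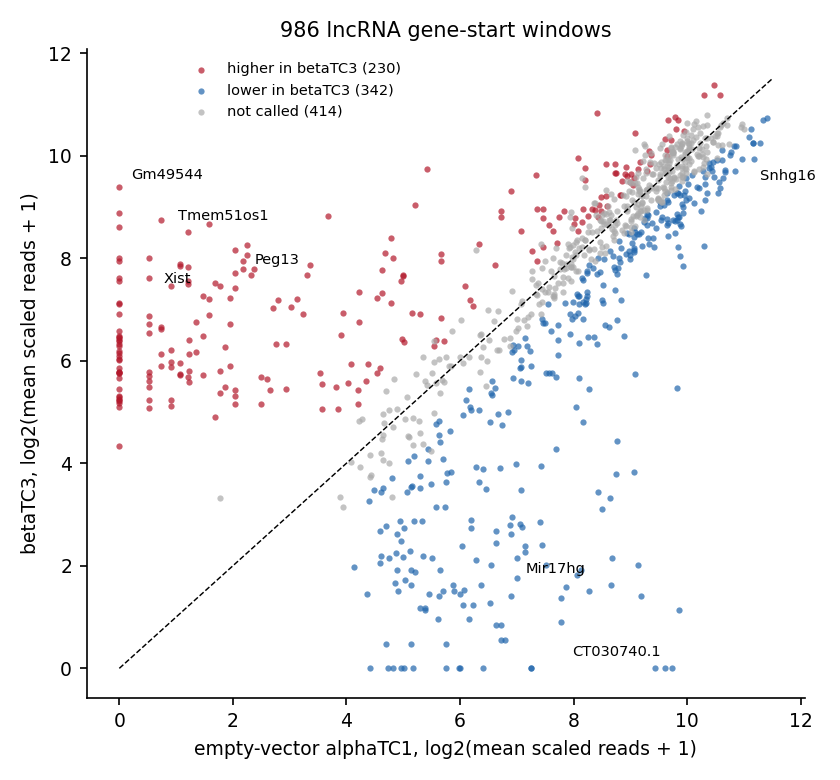
Mean level of each of the 986 lncRNA gene-start windows in betaTC3 (vertical) and empty-vector alphaTC1 (horizontal), as log2(mean scaled reads + 1), 2 libraries per group. Red windows (230) are higher in betaTC3, blue windows (342) lower and grey windows (414) not called; the columns of points at the left and bottom edges are windows at or near 0 in 1 line.

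The 10 windows named for the largest differences in the higher direction had signal in betaTC3 and next to none in alphaTC1. Gm49544 (antisense, chr15:79028783-79029183) had 682 and 658 scaled reads in betaTC3, 0 and 0 after knockdown and 0 and 0 with empty vector. Against the floor of 3 reads per library it was at least 202-fold higher in betaTC3 than with empty vector (adjusted p = 6.3e-06). Its start lies 400 bp from that of H1f0, a linker histone gene on the other strand. Tmem51os1 (antisense, chr4:142083884-142084284), whose promoter is shown above, starts 332 bp from Tmem51 on the opposite strand. It had 454 and 397 scaled reads in betaTC3, 2.39 and 0 after knockdown, and 1.32 and 0 with empty vector. The ratio of pooled reads to empty vector was 805 (exact 95% interval 144 to 31820).

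Gm26912 (lincRNA, chr12:110844649-110845049) had 426 and 509 scaled reads in betaTC3, 0 and 4.19 after knockdown and 0 and 0 with empty vector, at least 141-fold higher. Gm36677 (lincRNA, chr15:59618292-59618692) had 365 and 418 in betaTC3, 2.39 and 0 after knockdown and 0 and 0 with empty vector, at least 118-fold higher. No RefSeq protein-coding start lies within 1 kb of either lncRNA. Gm31036, at least 77.3-fold higher, 4930481A15Rik, at least 73.5-fold, and Gm41804, at least 58.8-fold, were likewise at 0 in both empty-vector libraries. A530020G20Rik had 355 and 377 in betaTC3, 2.39 and 1.40 after knockdown, and 2.65 and 0 with empty vector, a pooled ratio of 343 (94.7 to 2838).

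The 2 remaining windows of this set come with a limit. A330074K22Rik had 401 and 113 scaled reads in betaTC3, 0 and 0 after knockdown, and 0 and 0.888 with empty vector, so its betaTC3 libraries differed from each other more than those of the other 9 did. 1500004A13Rik had 192 and 184 in betaTC3 and 0 in each of the 4 alphaTC1 libraries, yet all 4 have a called peak over it. In none of the 10 windows did betaTC3 libraries overlap with empty-vector libraries, which the naming rule required; 82.8% of all windows did not overlap.

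The 10 windows named in the lower direction mirrored them. CT030740.1 (antisense, chr17:79354655-79355055) had 0 and 0 scaled reads in betaTC3, 490 and 655 after knockdown and 871 and 834 with empty vector. It was at least 325-fold lower in betaTC3 than with empty vector (adjusted p = 5.41e-06). It starts 392 bp from Cdc42ep3, a coding gene on the other strand whose product binds the small GTPase CDC42. Gm42838 (antisense, chr5:125057803-125058203) had 0 and 0 in betaTC3, 444 and 558 after knockdown and 740 and 816 with empty vector, at least 296-fold lower. 4933431K23Rik (chr8:77723832-77724232) had 0 and 0 in betaTC3, 431 and 573 after knockdown and 692 and 693 with empty vector, at least 264-fold lower. Its start is 868 bp from that of Ednra, the endothelin receptor type A gene.

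Gm43573 starts 56 bp from Adgrl2, a latrophilin receptor gene, and runs divergently from it. Its window had 2.4 and 0 scaled reads in betaTC3, 603 and 822 after knockdown and 924 and 921 with empty vector, a pooled ratio of 708 (242 to 3438) in the lower direction. Gm48488 starts 853 bp from Gas1, a growth arrest gene, and had 2.4 and 0.952 in betaTC3, 461 and 527 after knockdown and 567 and 600 with empty vector. Its window centre lies 993 bp from the annotated start, just inside the limit.

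Gm36252, whose promoter without a CG is printed above, is a lincRNA 85162 bp from the nearest coding start. Its window (chr17:68188034-68188434) had 3.19 and 2.85 scaled reads in betaTC3, 369 and 458 after knockdown and 514 and 604 with empty vector (log2 change -7.12 ± 0.20, SE; adjusted p = 6.3e-06). Gm11884 and Gm49598 were at 0 in both betaTC3 libraries and each at least 57.8-fold lower. Gm50063 and Gm41760, both antisense and on chromosome 18, had log2 changes of -7.15 and -6.88. In all 10 lower windows the 4 alphaTC1 libraries lay above both betaTC3 libraries. For the empty-vector libraries the naming rule required this, and betaTC3 and empty vector did not overlap at 82.8% of all windows.

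**Figure D3:**
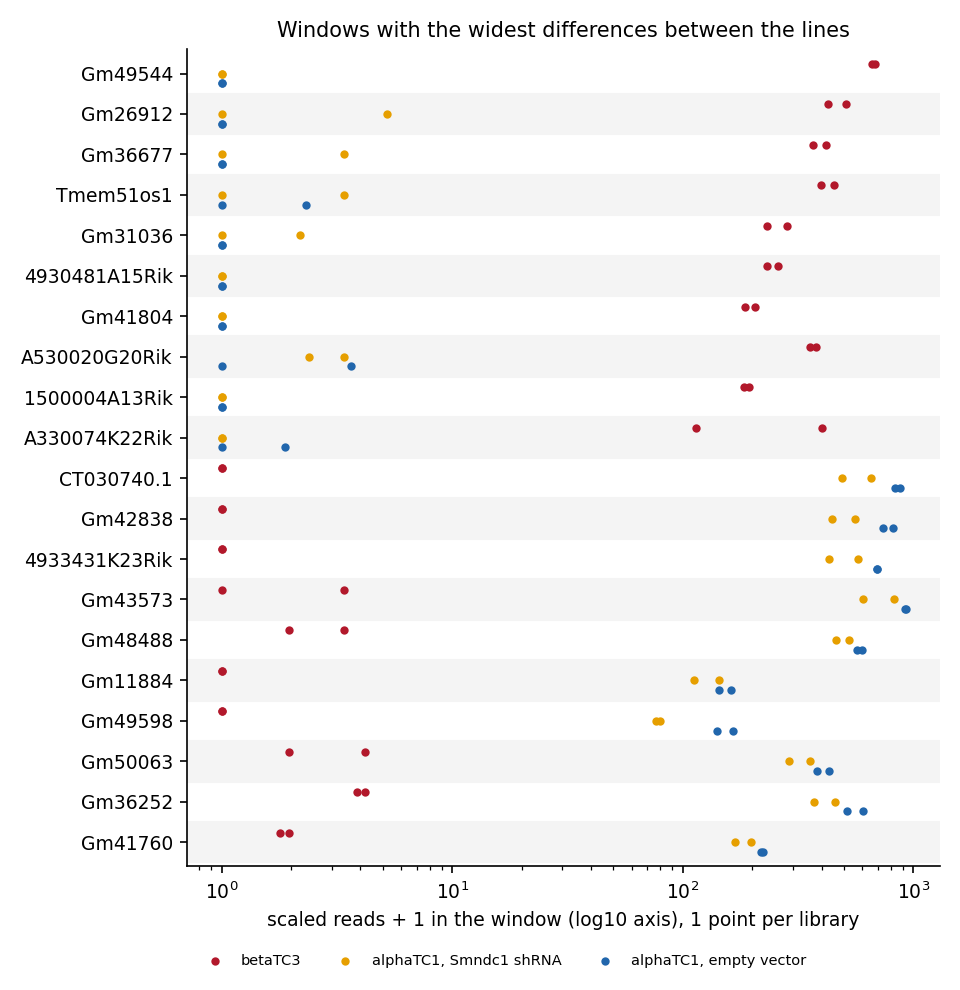
Scaled reads + 1 (log10 axis) in each of 6 libraries at the 10 windows named as higher in betaTC3 (upper rows) and the 10 named as lower (lower rows); 1 point per library, so a point at 1 is a value of 0. In each row the betaTC3 points stand apart from all 4 alphaTC1 points, which the naming rule required for the empty-vector points.

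Xist, the lncRNA that coats the inactive X chromosome, was the 1 gene of 4 listed for the X inactivation centre with a window here. The window (chrX:103482213-103482613) lies 841 bp inside the gene and had 195 and 195 scaled reads in betaTC3, 0 and 0 after knockdown and 0 and 0.888 with empty vector. The ratio of pooled reads was 367 (65.5 to 14520) and the log2 change 7.16 ± 0.37 (SE, adjusted p = 1.42e-05). Both betaTC3 libraries, and no alphaTC1 library, had a peak there.

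Of 14 imprinted lncRNAs listed, 3 had a window, and they went different ways. Peg13, a paternally expressed RNA within Trappc9, had 224 and 217 scaled reads in betaTC3, 1.19 and 0 after knockdown and 5.30 and 1.78 with empty vector. It was 62.4 times the empty-vector mean in betaTC3 (log2 change 5.73 ± 0.52, SE; adjusted p = 0.000149). Airn, the RNA that silences Igf2r in cis, had 383 and 382 in betaTC3, 393 and 422 after knockdown and 518 and 550 with empty vector. It was called lower in betaTC3 (log2 change -0.48, adjusted p = 0.0139), with adjusted p = 0.131 by DESeq2, 0.0716 without the first and 0.116 without the second empty-vector library. Kcnq1ot1 had 23.2 and 33.3 in betaTC3, 14.3 and 11.2 after knockdown and 14.6 and 22.2 with empty vector, and did not pass the test (adjusted p = 0.177).

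Hosts of microRNAs were mostly lower in betaTC3. Of 21 listed genes, 8 had windows, 9 in all, of which 8 were called lower and 1 higher, beside 33.2% and 22.1% of all windows. Mir22hg accounts for more than 1 of the lower windows, and the list was chosen with earlier results of these data known. The counts were the same after centring, with edgeR and with DESeq2, and the median log2 change was -1.02 (-0.837 after centring) against -0.132 over all windows. Mir17hg, the precursor of a growth-promoting microRNA cluster, had 0 and 4.76 scaled reads in betaTC3, 110 and 124 after knockdown and 134 and 122 with empty vector (log2 change -5.74 ± 0.74, SE; adjusted p = 0.000713). Mir155hg, host of an immune-regulatory microRNA, had 1.60 and 1.90 in betaTC3, 43.0 and 40.5 after knockdown and 45.0 and 40.8 with empty vector (log2 change -4.0, adjusted p = 3.2e-05). Mir99ahg had 14.4 and 15.2 in betaTC3, 143 and 157 after knockdown and 111 and 139 with empty vector, 0.118 times the empty-vector mean.

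Smaller differences made up the rest of the hosts. The 2 Mir22hg windows, centred 590 bp before and 409 bp after its start, stood at 0.499 and 0.489 times their empty-vector means. Mir9-3hg, host of a neuronal microRNA, had 106 and 99.9 scaled reads in betaTC3, 123 and 183 after knockdown and 212 and 208 with empty vector, 0.491 times the empty-vector mean. Mir124a-1hg, another neuronal host, stood at 0.536 times and A330023F24Rik, a microRNA host, at 0.683 times. Mir670hg was the 1 host higher in betaTC3. It had 222 and 246 in betaTC3, 93.2 and 92.2 after knockdown and 88.7 and 106 with empty vector, 2.41 times the empty-vector mean (adjusted p = 0.00087). Both betaTC3 values lay above all 4 alphaTC1 values.

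Hosts of small nucleolar RNAs had high signal throughout. Of 22 listed genes, 8 had a window, with mean levels of 544 to 1741 scaled reads, and all 8 had a peak in every library. Snhg16 (chr11:116671764-116672164) had 993 and 954 in betaTC3, 1634 and 2211 after knockdown and 2214 and 2440 with empty vector (log2 change -1.25 ± 0.20, SE; adjusted p = 0.00197). Snhg6 and Snhg17 were also lower in betaTC3, at 0.543 and 0.548 times their empty-vector means. Snhg12 was called higher, at 1.29 times, but lost its call under 7 alternatives, including each library left out in turn. Snhg1, which hosts several small nucleolar RNAs in its introns, had 1085 and 1044 in betaTC3, 674 and 773 after knockdown and 824 and 893 with empty vector (adjusted p = 0.104). Snhg10, Epb41l4aos and Zfas1 did not pass the test either. After centring, and with edgeR or DESeq2, Snhg1, Snhg10 and Epb41l4aos joined Snhg12 as called higher, giving 4 higher and 3 lower.

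**Figure D4:**
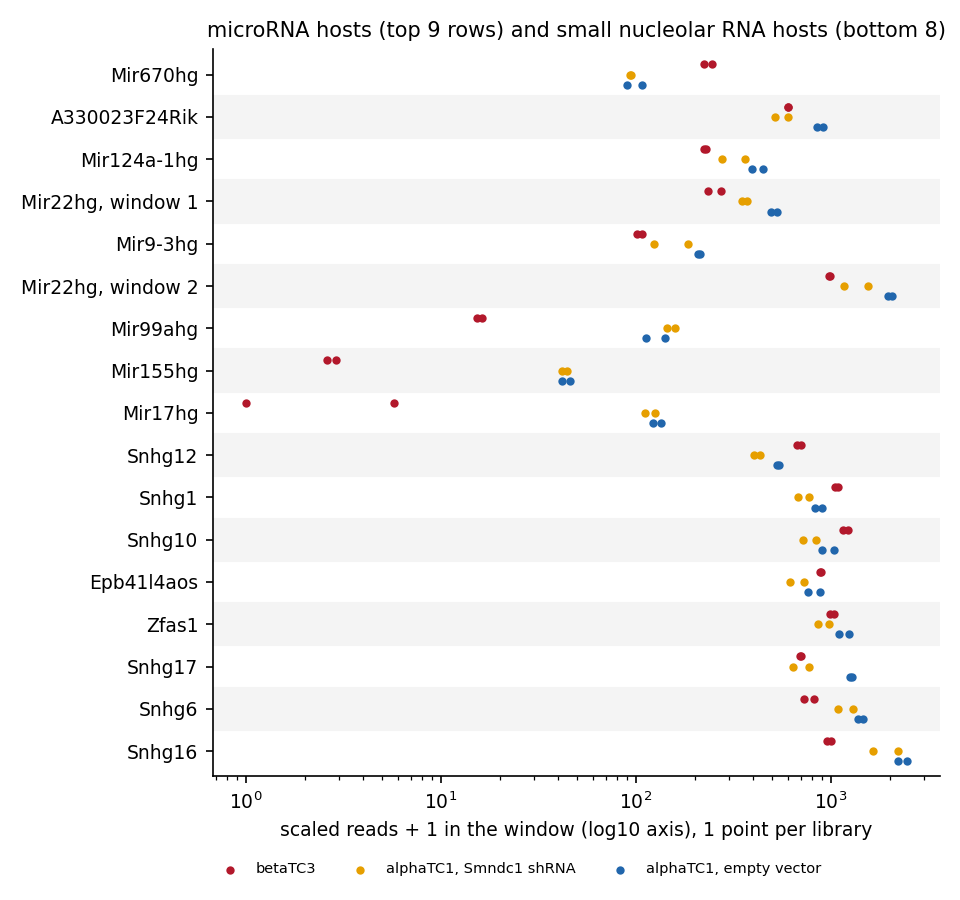
Scaled reads + 1 (log10 axis) in each of 6 libraries at windows of microRNA hosts (top 9 rows) and small nucleolar RNA hosts (bottom 8 rows), each set ordered by its log2 change between betaTC3 and empty vector. Mir17hg, Mir155hg and Mir99ahg fall far to the left in betaTC3, while all host windows of small nucleolar RNAs lie between 400 and 2440 scaled reads.

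The other lists were smaller. Of 29 nuclear and other well-studied lncRNAs, 5 had a window. Crnde, an RNA first described in colorectal neoplasia, was called lower in betaTC3, with 228 and 185 scaled reads in betaTC3, 241 and 218 after knockdown and 344 and 335 with empty vector. Oip5os1 (also called Cyrano), Dancr, Dubr and Firre, an X-linked RNA of nuclear organisation, did not pass the test, although Oip5os1 and Dancr were called higher in betaTC3 after centring and with edgeR and DESeq2. Of 49 lncRNAs beside developmental regulators, 3 had a window. Zeb2os had 425 and 316 in betaTC3, 136 and 166 after knockdown and 187 and 210 with empty vector, and was higher in betaTC3 (adjusted p = 0.00837). Zfhx2os was also higher, at 1.81 times the empty-vector mean, and Foxd2os did not pass the test (adjusted p = 0.134).

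The 5 windows with the highest mean level were all antisense genes, and all were lower in betaTC3. Gm11508, which starts 633 bp from the splicing factor gene Srsf1, had 1792 and 1626 scaled reads in betaTC3, 1793 and 2402 after knockdown and 2706 and 2728 with empty vector. 2900093K20Rik, Gm5129, Gm7854 and Snhg16 followed. Their betaTC3 means were 0.418 to 0.659 times the empty-vector means, with adjusted p from 0.00197 to 0.0413. Gm11508, 2900093K20Rik and Gm7854 lost the call when any 1 library of either group was left out.

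Differences between the lines varied by chromosome. Among lncRNA windows with over 100 scaled reads, the median log2 change of betaTC3 against empty vector was -0.815 for 42 windows on chromosome 11 and -0.665 for 48 on chromosome 7. On these chromosomes the medians of all such windows were -0.734 and -0.587. In the other direction the lncRNA median was 0.637 for 22 windows on chromosome 14 and 0.472 for 37 on chromosome 12, and the medians of all such windows there were 0.641 and 0.418. On some chromosomes the lncRNA windows departed from the rest. The lncRNA median was -0.858 for 15 windows on chromosome 16, against -0.420 for all such windows there. It was -0.413 for 26 windows on chromosome 9 and -0.233 for 17 on chromosome X, against -0.193 and 0.001 for all such windows, and these gaps were not tested. On chromosome 11, 27 of 42 lncRNA windows were called lower and 2 higher, beside 587 lower and 60 higher of all 955 such windows. On chromosome 14, 14 of 22 were called higher and 3 lower, beside 225 higher and 17 lower of all 356. The lncRNA windows there were thus close to the rest of their chromosome. Snhg16, Gm11508 and Mir22hg lie on chromosome 11, Mir9-3hg on chromosome 7 and Zfhx2os on chromosome 14. The number of chromosome copies in each line was not measured here, and a copy-number difference and a difference in the mark cannot be told apart from these values.

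Neighbouring protein-coding starts moved with the lncRNA starts only in part. For 119 lncRNA windows the nearest separate protein-coding start window lay within 10 kb, at a median of 4747 bp. The log2 changes between the lines had r = 0.363 and rho = 0.392 over these pairs, which share libraries and chromosome. For 34 pairs with centres up to 2 kb apart r was 0.556 and rho 0.268, and for 85 pairs further apart they were 0.310 and 0.436. The lncRNA window was called in 62 pairs and the coding window in 60, beside 55.2% of all windows. In 39 pairs both windows were called, 32 in the same direction and 7 in opposite directions. In 23 pairs only the lncRNA window was called, and the remaining calls of coding windows came without one at the lncRNA window. Gm31036 went with Kifc3, a kinesin gene 4826 bp away, whose window averaged 579 scaled reads in betaTC3 and 53.8 with empty vector (log2 change 3.42). Gm26912 did not share its contrast with Mok, a kinase gene 4105 bp away, whose window averaged 1108 in betaTC3 and 808.8 with empty vector (log2 change 0.45, adjusted p = 0.0562). Zeb2os and the Zeb2 window 7137 bp away went opposite ways, with log2 changes of 0.89 and -1.28. A RefSeq coding start also lies within 1 kb of the Zeb2os start, on the other strand. The same holds for other lncRNA windows among these pairs, so their signal cannot be assigned to the lncRNA gene alone. Of 26 genes with more than 1 lncRNA window, 17 had 2 or more windows called, and in 16 of these the direction was the same.

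Smndc1 knockdown left no lncRNA window past the threshold. Limma called 0 of 986 windows, beside 0% of all windows, and the smallest adjusted p was 0.0641. At an unadjusted p below 0.05 there were 315 lncRNA windows (35% of all windows were). EdgeR called 0 (0% of all windows) and DESeq2 1 (0.0567% of all windows). Limma called 11 lncRNA windows without its intensity trend (0.924% of all windows) and 27 with a pseudocount of 0.1 (1.9% of all windows). The window that DESeq2 called was Snhg17, with 637 and 773 scaled reads after knockdown and 1248 and 1286 with empty vector (log2 change -0.485 and adjusted p = 0.0379 by DESeq2, -0.85 and 0.1 by limma).

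Most lncRNA windows were somewhat lower after knockdown in the deposited scaling, and so was the table as a whole. The log2 change was below 0 at 838 lncRNA windows (85.0%), with a median of -0.381 beside -0.374 over all windows. After centring, the lncRNA median was -0.006 and 50.9% lay below 0. Library medians were 198 and 230 scaled reads after knockdown and 270 and 281 with empty vector. The 2 knockdown libraries also differed from each other, and without the second one limma called 309 lncRNA windows, 11 higher and 298 lower (35.6% of all windows). That fit takes the spread of the 1 remaining knockdown library from the other groups. The gene lists moved with the table. All 8 host windows of small nucleolar RNAs lay below 0 as deposited and 1 of 8 after centring, and 8 of 9 microRNA host windows lay below 0 as deposited and 5 of 9 after centring.

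**Figure D5:**
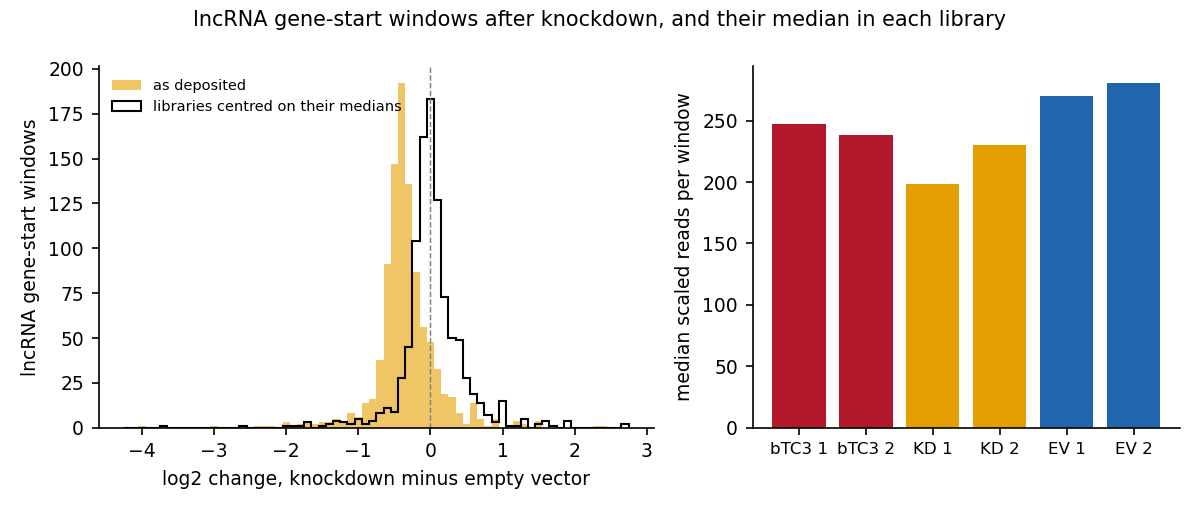
Left, number of lncRNA gene-start windows by log2 change of knockdown minus empty vector, as deposited (filled) and with libraries centred on their medians (line). Right, median scaled reads of the 986 windows in each library (KD, Smndc1 shRNA; EV, empty vector). The deposited changes centre on -0.381 and the centred ones on -0.006.

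The 5 windows with the smallest p in the lower direction include 1 with ample signal. 2900060N12Rik (chr12:24831228-24831628), which runs divergently from Mboat2 and whose promoter is shown above, had 115 and 110 scaled reads after knockdown and 249 and 265 with empty vector. It stood at 0.438 times the empty-vector mean (log2 change -1.18 ± 0.15, SE; adjusted p = 0.0683) and had 438 and 372 in betaTC3. Rptoros, antisense to the mTOR-complex gene Rptor by its name, had 8.36 and 5.59 after knockdown and 43.7 and 32.8 with empty vector, with 113 and 126 in betaTC3 (adjusted p = 0.0687). Both empty-vector libraries had a peak at Rptoros and neither knockdown library had. 5330413P13Rik had 0 and 0 after knockdown and 5.30 and 8.88 with empty vector, at least 1.82-fold lower. 3222401L13Rik, on chromosome 18, had 0 and 0 after knockdown and 26.5 and 8.88 with empty vector, at least 4.55-fold lower. Gm43397 had 1.19 and 1.40 after knockdown and 11.9 and 9.77 with empty vector. None of the 5 passed the adjusted threshold on the deposited scale with 1 added. All 5 passed it with limma without the intensity trend and with a pseudocount of 0.1 (for 2900060N12Rik, adjusted p = 0.0479 and 0.0143). With edgeR, DESeq2 or centred libraries, none did. Leaving out the second knockdown library leaves 1 library in that group, so its calls are not counted here. In all 5 the groups did not overlap, which held for 71.5% of all windows.

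The 5 windows with the smallest p in the higher direction rested on a handful of reads. Gm44020 had 5.97 and 2.80 scaled reads after knockdown and 0 and 0 with empty vector, at least 1.32-fold higher (adjusted p = 0.0752). Gm16035, Cyp4x1os, Gm43809 and Gm11638 had 1.19 to 2.80 after knockdown and 0 in both empty-vector libraries, at or under the floor of 3 reads per library. All 5 had far more signal in betaTC3, from 34.3 scaled reads at Gm44020 to 142 at Cyp4x1os.

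Peaks changed at few lncRNA starts after knockdown. Both knockdown libraries and no empty-vector library had a peak at 8 windows (0.81%, exact 95% interval 0.35 to 1.59), and the reverse held at 6 windows (0.61%, 0.22 to 1.32). The shares at protein-coding windows were 0.45% and 0.19%. With at least 50% of the window covered by the peak, the counts at lncRNA windows were 14 and 5. With only peaks at or above the median −log10 q, 0.81% of the lncRNA windows showed each pattern, against 0.97% and 0.82% of the protein-coding windows. The 8 windows reached 21.0 to 35.8 scaled reads after knockdown and 9.27 to 26.6 with empty vector. Windows without a peak reached at most 31.1 and 30.7 in the knockdown libraries and 33.1 and 32.8 in the empty-vector libraries. Most of the knockdown values thus lay in the range of windows without a peak, and some lay slightly above it. Besides Rptoros, the 6 were 1700041B01Rik, Gm11734, Gm26644, Gm2762 and Gm44386, with 10.7 to 31.1 scaled reads after knockdown and 25.2 to 65.7 with empty vector.

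The limit of 1000 bp separates windows of every kind. Just inside it, Gm27003 (999 bp) averaged 1192 scaled reads in betaTC3, 366 after knockdown and 602 with empty vector, and Gm14486 (984 bp) averaged 0.5, 95.8 and 110 in the same groups. Just outside, Gm48623 (1008 bp) averaged 547, 390 and 527, Igf2os (1009 bp) 650, 7.6 and 4.0, and 4930449E18Rik (1033 bp) 58.2, 7.4 and 13.5.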

How the data were processed

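Per the labels' protocols, sequencing gave single reads of 50 bp from NEBNext libraries. Tools named in the submitters' processing notes are MACS2 2.2.7.1, Bowtie2 2.4.1 and Picard 2.19.2, with build mm10 (GRCm38); their roles were not given in the sources used here. Deposited by the authors were a table of windows with a normalised signal (coverage) per library, and a peak list for each library that names the input of the same group in its peak names. In the peak lists the deposited columns hold a score, a ratio (fold over local background) and −log10 p- and q-values, all the authors'. Peak position and the −log10 q-value were used here, and a window had a peak where at least 1 bp overlapped (bedtools 2.31.1).

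Every deposited signal value was a whole multiple of 1 step per library, 0.799 to 1.40 scaled reads per read (tolerance 1e-06), and 100% of values came out whole. The sources used here do not say how the steps were set or whether input was subtracted. Limma 3.58.1 (R 4.3.3) was fitted to log2(scaled reads + 1) of all 6 libraries with an intensity trend, group means only, and Benjamini-Hochberg adjustment over 17641 windows. Fitted changes of low windows depend on the added 1 and understate them. Folds against a group at 0 use a floor of 3 reads per library, and with 1 to 3 reads a ratio of pooled reads with an exact 95% interval; both cover counting error only, since reads carry no molecular identifiers. Recovered reads were also tested with edgeR 4.0.16 and DESeq2 1.42.0, as alternatives. P-values measure the spread between libraries, which may be technical. The scripts were tested on simulated data.

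Gene starts and biotypes are those of the deposited table; 103 windows have another start in its gene location column, and 12 carry a symbol that RefSeq lists as protein-coding. Promoters and coding starts are RefSeq, GRCm38.p6; of the 986 windows, 593 matched a RefSeq gene by symbol or ID. The named windows were list members, the 10 higher and 10 lower with the largest change among called windows without overlap (betaTC3), the 5 each way with the smallest p (knockdown), and the 5 of highest level. The windows and lists were chosen with earlier results of these data known. Input libraries were not analysed separately.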

Additional observations from a re-analysis of the deposited data

How the results depend on the processing

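In betaTC3 against empty vector, the median log2 change of the lncRNA windows was -0.134 as deposited, 0.047 with centred libraries, 0.032 with edgeR and 0.089 with DESeq2, and over all windows it was -0.132, 0.049, 0.044 and 0.101, so its sign rests on the scaling. Of the 572 called windows, 548 were shared with the centred fit, 554 with edgeR and 513 with DESeq2, all in the same direction. With the distance limit at 250 bp, 269 of 475 windows were called. Without windows whose lncRNA starts within 1 kb of a RefSeq coding start, a choice made after seeing the data, 379 of 556 were. Of all windows in the deposited scaling, 55.2% were called. For knockdown, limma called 0, DESeq2 1, limma without the intensity trend 11 (0.924% of all windows) and limma with a pseudocount of 0.1 27 (1.9%); the median of -0.381 became -0.011 with DESeq2, -0.003 with edgeR and -0.006 with centred libraries. Leaving out each library in turn gave 415 to 459 calls and medians of -0.220 to -0.110 for betaTC3, and 0 to 309 calls and medians of -0.493 to -0.245 for knockdown. The share differences of 0.084 and 0.012 percentage points ranged from 0.038 to 0.131 and from 0.001 to 0.023. With only peaks at or above the median −log10 q of a list, 43.10% (betaTC3), 45.64% (knockdown) and 45.64% (empty vector) of the windows had a peak in both libraries, and with at least 50% of the window covered, 79.01% had in the empty-vector libraries. Named windows, called or not, gave 819 alternative values, of which 728 kept their direction and side of the threshold, 45 lost their call and 45 gained one. Direction changed once, at Zfas1, whose log2 change was 0.02 with DESeq2 and did not pass the test there or as deposited. The replicate numbers do not pair the libraries (correlations of deviations -0.176, 0.085 and -0.0079). With the replicate block, 529 of the 572 windows called for betaTC3 kept their call, all in the same direction, and 0 were called for knockdown. The cause of these differences was not tested. The lower depth of the knockdown libraries (4530066 and 4800860 reads in windows) limits what windows near the floor can show.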
